A study of Mus musculus with 27 samples.

Results

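The hippocampi of mice infused with antibodies against IgLON5 were compared with those of mice infused with phosphate-buffered saline (PBS). The comparison was defined by tissue and treatment alone and took in 9 of the 27 RNA-seq libraries of the study, 4 from the antibody group and 5 from the PBS group. All mice were male C57Bl/6J wild-type animals, 8 weeks old at the start, and received their solution for 14 days at 0.25 µl per hour through a cannula in the right lateral ventricle fed by an osmotic pump. The hippocampus was taken from the side opposite the cannula. The antibody, called α-IgLON5#1, was human IgG that had been purified from patient plasma by its binding to IgLON5. PBS mice received no human IgG, so an effect of antibodies that bind IgLON5 and an effect of any infused human IgG cannot be told apart in this comparison. For that reason the values of 4 hippocampi infused with a control human IgG (pCtrl) are given beside the main results. The sample labels describe this control as a non-reactive monoclonal human antibody, whereas the methods of the study describe IgG from the serum of a healthy person. Each hippocampal library came from a different mouse, and the mice are called here by the numbers in their labels, 8, 9, 16 and 17 for α-IgLON5#1, 14, 32, 33, 38 and 74 for PBS, and 10, 15, 37 and 75 for pCtrl. Values for single mice are listed in this order throughout. The antibody mice carried low numbers and 4 of the 5 PBS mice high ones, so the number of the mouse went with the treatment in most mice, with PBS mouse 14 and pCtrl mice 10 and 15 inside the range of the antibody mice.

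IgLON5 is a neuronal cell adhesion protein of the immunoglobulin superfamily, tethered to the outer face of the membrane, and its relatives are Lsamp, Opcml, Ntm and Negr1. In anti-IgLON5 disease patients carry autoantibodies to this protein and develop sleep and movement disorders with deposits of Tau. In brain tissue an antibody bound to its target can be read by Fc receptors and complement, which microglia, the resident macrophages of the brain, carry or make. RNA-seq reads the transcripts of the mouse and not the infused human protein.

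The libraries held 19428512 to 32776892 counts in the α-IgLON5#1 group, 29098828 to 58550621 in PBS and 39479753 to 52212204 in pCtrl. The difference in total counts between α-IgLON5#1 and PBS had p = 0.0794 (two-sided exact permutation test, n = 4 and 5, smallest possible p = 0.0159). Levels are given as CPM, the counts of a gene per 1000000 counts of the library after TMM scaling. The labels name neurons as the cell type, but the RNA was from whole tissue, since Slc1a2 of astrocytes had a mean of 3487 ± 365 CPM (SD, n = 5) in PBS and Mbp of oligodendrocytes a mean of 1397 ± 381 CPM. In such tissue fewer cells of a type and less RNA per cell cannot be told apart. Some libraries stood apart. Counts of CT010467.1, Gm23935 and Lars2, together called here the ribosomal RNA share, made up 13.3% of α-IgLON5#1 mouse 9 and 2.49% of PBS mouse 38. CT010467.1 alone made up 11.6% and 2.21%. PBS mouse 74 held 3889 CPM of a list of 5 pituitary genes, against 4.14 to 101 CPM in the other PBS mice and 1.92 to 41.3 CPM with α-IgLON5#1. A score of how much cortex a hippocampal sample held, built from genes that separate the tissues in pCtrl mice, was -1.79 ± 0.187 in PBS and -1.68 ± 0.268 with α-IgLON5#1 (p = 0.54, two-sided exact permutation test), a difference within the spread of the libraries. In pCtrl it was -0.887, -1.59, -0.374 and -1.45, above every PBS library, so that pCtrl mice 10 and 37 in particular were nearer to cortex.

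The α-IgLON5#1 hippocampi differed from PBS hippocampi by far more gains than losses. Of 20271 genes tested, 519 (2.56%) were up-regulated differentially expressed genes (DEGs), called where the adjusted p was below 0.05 and the change exceeded 2-fold, and 22 (0.109%) were down-regulated. Without the fold threshold 773 genes (3.81%) were higher and 96 (0.474%) lower. In 911 genes (4.49%) every α-IgLON5#1 library lay above every PBS library, and in 232 (1.14%) every one lay below. Of the 519 up-regulated DEGs, 439 were protein-coding and 60 were immunoglobulin (Ig) genes. The median log2 fold change of the up-regulated DEGs was 2.06, against -0.01 over all tested genes, and 97 rose more than 16-fold. Most were scarce without the antibody, as 310 had a PBS mean of at most 1 CPM and 24 had no count in any PBS library. Among 2267 genes whose 2 group means averaged over 100 CPM, 6 were up-regulated DEGs and 0 down-regulated. These 6 were the astrocyte filament gene Gfap, the MHC class I light chain B2m, the protease gene Ctss, the complement gene C4b and the Ig genes Igkc and Ighg2b. Without mouse 8 the up-regulated DEGs numbered 376, of which 362 were among the 519.

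**Figure D1:**
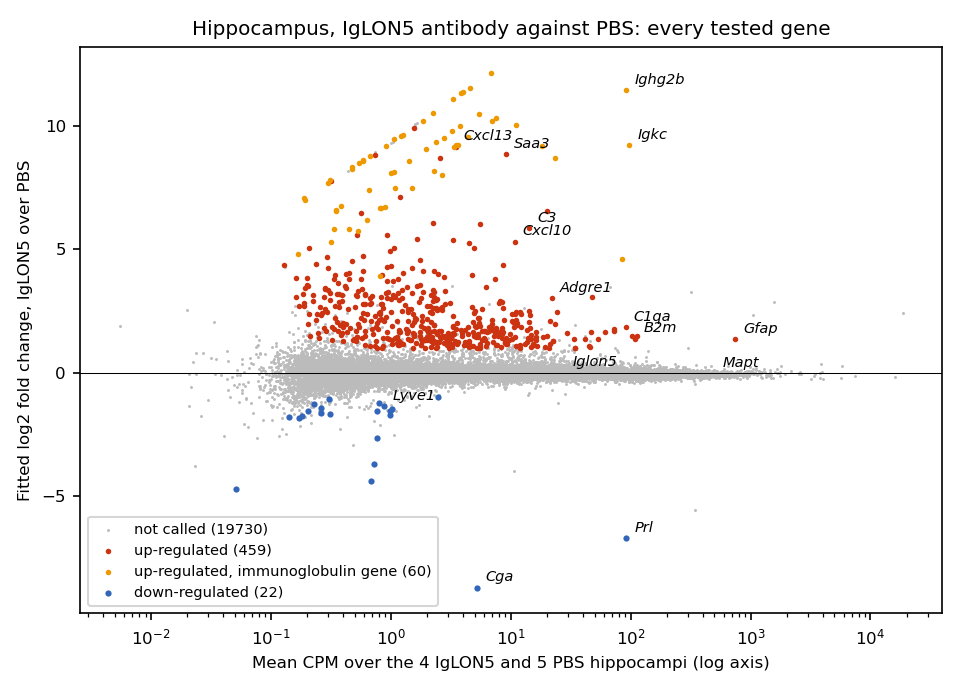
Mean CPM of each of the 20271 tested genes over the 9 libraries (x axis, log scale) against its fitted log2 fold change of α-IgLON5#1 over PBS (y axis), with 459 up-regulated DEGs in red, 60 up-regulated Ig genes in orange and 22 down-regulated DEGs in blue. The up-regulated DEGs spread over the low and middle levels and reach past a log2 change of 10, and the 22 below 0 are few and mostly at low levels.

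Neither the target of the antibody nor any gene of the neuronal lists was a DEG. Iglon5 (chr7:43472904-43490075, GRCm38) was at 30.6, 24.9, 30.6, 26.1 and 27.2 CPM in PBS and 29.4, 30.5, 27.2 and 26.5 CPM with α-IgLON5#1. The groups overlapped fully, with a log2 fold change of 0.02 ± 0.09 (SE, adjusted p = 0.951). None of the 5 IgLON genes passed the test. Lsamp came nearest, with a mean of 487 ± 61.99 CPM in PBS and 413 ± 24.9 CPM with α-IgLON5#1 (log2 fold change -0.24 ± 0.07 (SE), adjusted p = 0.0682), and passed it in DESeq2 (adjusted p = 0.0274). Negr1 lay lower in every α-IgLON5#1 library than in every PBS library (185, 174, 197 and 195 CPM against 203, 218, 254, 209 and 243 CPM), but its adjusted p was 0.119. Mapt, which encodes Tau, was at 506 ± 21.7 CPM in PBS and 493 ± 24.7 CPM with α-IgLON5#1 (log2 fold change -0.04 ± 0.05 (SE), adjusted p = 0.831).

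Lists of neuronal genes stood near the median of all genes. Of 12 pan-neuronal genes 0 passed the test with a median log2 fold change of -0.05. The same count of 0 was found for 15 genes of Tau, its kinases and phosphatases (median -0.01), 11 potassium channel genes (-0.08), 11 sodium and calcium channel genes (-0.05), 10 synaptic genes (-0.06), 13 immediate early genes (0.16) and 10 genes of hippocampal subfields (0.05). All 15 glutamate and GABA receptor genes were lower with α-IgLON5#1, by a median of -0.16, yet none passed the test, and the median of pCtrl over PBS was -0.16 too. Among 9 genes of inhibitory neurons only Gad2, an enzyme that makes GABA, passed. Gad2 was at 176, 191, 208, 177 and 187 CPM in PBS and 168, 136, 172 and 168 CPM with α-IgLON5#1, where mouse 9 was lowest (log2 fold change -0.22 ± 0.06 (SE), adjusted p = 0.035).

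**Figure D2:**
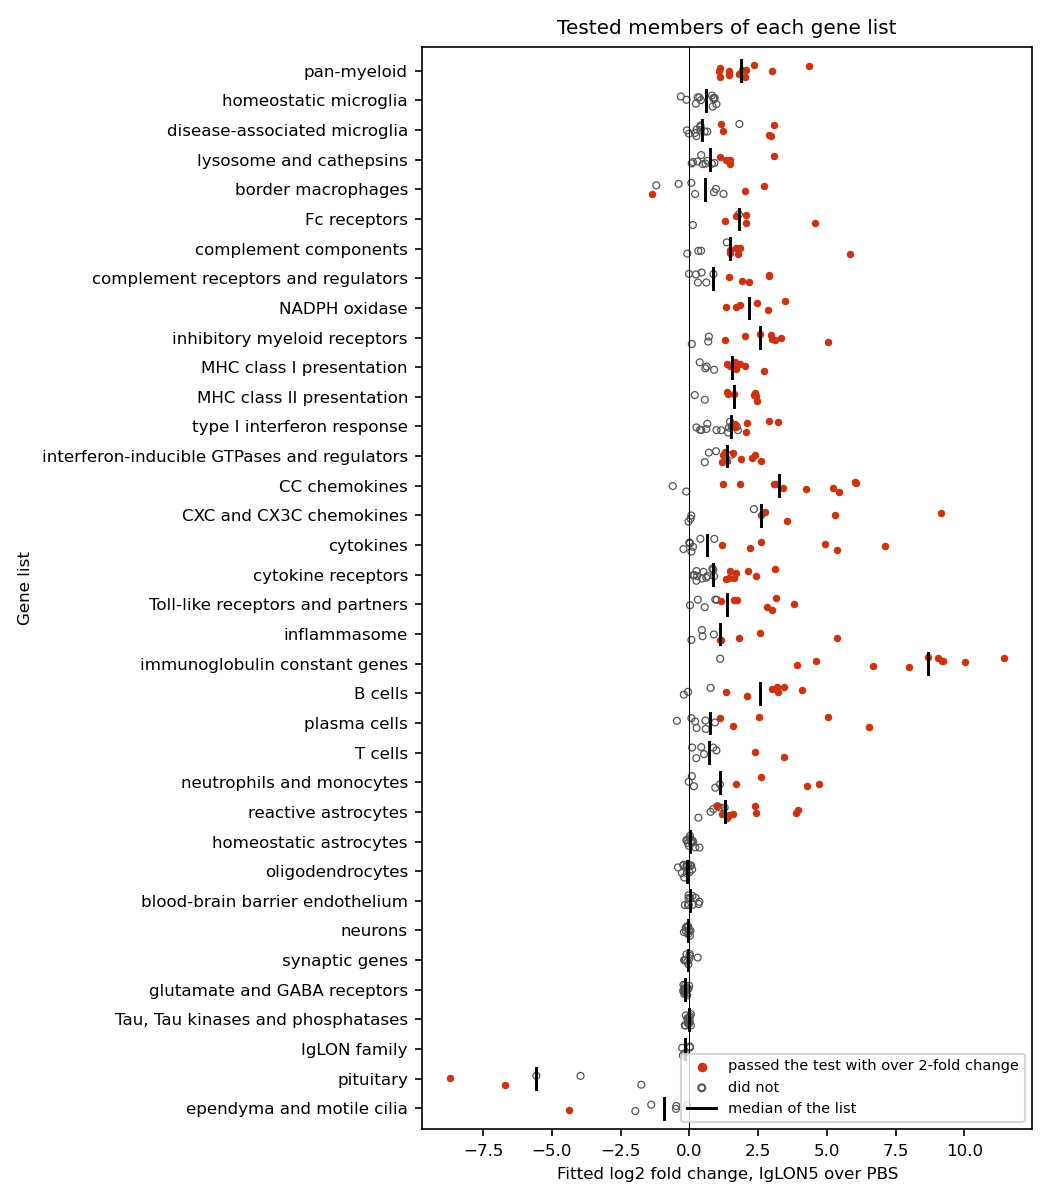
Log2 fold change of α-IgLON5#1 over PBS (x axis) for each tested member of the gene lists (y axis), with DEGs as filled points, other genes as open points and a bar at the median of each list. The medians of the myeloid, antigen presentation, chemokine and Ig lists lie to the right of 0, with single members such as Lyve1 to the left, and lists of neurons, oligodendrocytes and the blood-brain barrier have medians near it, with all 15 glutamate and GABA receptor genes just below 0.

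Genes that all myeloid cells share rose together. All 12 pan-myeloid genes were up-regulated DEGs, with a median log2 fold change of 1.86. Aif1, which encodes the microglia and macrophage protein Iba1, was at 6.28, 3.86, 3.49, 4.75 and 3.603 CPM in PBS and 11.2, 31.9, 19.8 and 9.43 CPM with α-IgLON5#1. Every antibody mouse lay above every PBS mouse, with mouse 9 highest (log2 fold change 2.04 ± 0.30 (SE), adjusted p = 4.34e-05). Adgre1, the F4/80 surface receptor, was at 5.36, 5.25, 4.63, 5.85 and 5.42 CPM in PBS and 30.5, 64.5, 51.5 and 24.5 CPM with α-IgLON5#1. The lowest antibody mouse was more than 4 times the highest PBS mouse (log2 fold change 3.01 ± 0.27 (SE), adjusted p = 3.43e-08). Cd68, a protein of phagocytic lysosomes, rose from 7.81 ± 0.926 to 17.1 ± 2.72 CPM (SD, n = 5 and 4), again without overlap (log2 fold change 1.13 ± 0.11 (SE), adjusted p = 8.48e-08). Itgb2, the shared chain of the leukocyte integrins, rose from 4.998 ± 0.417 to 19.05 ± 4.71 CPM (log2 fold change 1.93 ± 0.16 (SE), adjusted p = 1.99e-08). Laptm5, a lysosomal protein of leukocytes, rose by 1.09, and by 0.93, under the 2-fold threshold, without mouse 9.

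Genes that mark resting microglia moved less. Of 12 such genes 0 were DEGs (3 without mouse 17, 2 without mouse 8 and 1 without PBS mouse 14 or 74), 6 passed the test without the fold threshold, all higher, and the median was 0.62. Csf1r, the growth factor receptor that microglia need, was at 118, 97.2, 91.1, 103 and 106 CPM in PBS and 154, 252, 198 and 148 CPM with α-IgLON5#1 (log2 fold change 0.87 ± 0.10 (SE), adjusted p = 1.98e-06). Its groups did not overlap. Cx3cr1, the fractalkine receptor, rose by 0.98 ± 0.13, with mouse 9 highest. P2ry12, the ADP receptor of resting microglia, was lower in fitted level and did not pass the test. It was at 43.8, 36.99, 39.9, 26.8 and 40.4 CPM in PBS and 18.2, 31.1, 35.6 and 35.6 CPM with α-IgLON5#1, so that the groups overlapped (log2 fold change -0.31 ± 0.18 (SE), adjusted p = 0.422).

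Genes of activated microglia and of lysosomes rose in part. Of 16 disease-associated microglia genes 5 were DEGs (Itgax, Cst7, Clec7a, Trem2 and Ccl6), with a list median of 0.48. Clec7a, a receptor for fungal glucans, was at 0.614, 0.558, 0.674, 0.534 and 0.589 CPM in PBS and 6.74, 4.84, 3.74 and 3.27 CPM with α-IgLON5#1 (log2 fold change 2.95 ± 0.52 (SE), adjusted p = 0.00036). Cst7, an inhibitor of cathepsins, was at 0.239, 0.164, 0.235, 0.326 and 0.283 CPM in PBS and 1.87, 4.22, 1.81 and 0.659 CPM with the antibody, with mouse 9 far above the rest (log2 fold change 3.07 ± 0.45 (SE), adjusted p = 3.35e-05). Itgax rose by 2.88 ± 0.31, and Trem2, the lipid receptor of phagocytes, by 1.15 ± 0.12 (0.99 without mouse 9, under the fold threshold). Apoe, the most abundant member, was at 1644 ± 118 CPM in PBS and 1959 ± 108 CPM with α-IgLON5#1 and did not pass the test (log2 fold change 0.25 ± 0.08 (SE), adjusted p = 0.0953). Of 14 lysosomal genes 12 passed the test, all higher, and 5 were DEGs. Ctss, a cathepsin that trims MHC class II complexes, was at 79.8, 55.6, 60.4, 57.3 and 59.3 CPM in PBS and 144, 231, 176 and 148 CPM with α-IgLON5#1 (log2 fold change 1.49 ± 0.14 (SE), adjusted p = 4.25e-08). The protease gene Ctsd rose from 107 ± 9.19 to 167 ± 19.8 CPM (log2 fold change 0.65 ± 0.09 (SE), adjusted p = 8.05e-06).

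Macrophages at the borders of the brain have markers of their own, and these did not move as a block. Of 10 tested border macrophage genes 2 (Ms4a7 and Siglec1) were up-regulated and 1 was a down-regulated DEG. The call of Siglec1, a sialic acid receptor (log2 fold change 2.04, adjusted p = 0.0172), was lost without mouse 8 (adjusted p = 0.152) or PBS mouse 32 (adjusted p = 0.0546), and 4 genes were up-regulated DEGs without PBS mouse 38. Ms4a7, a membrane protein of macrophages, was at 0.648, 0.558, 0.586, 0.712 and 0.542 CPM in PBS and 6.3, 1.802, 1.56 and 6.25 CPM with α-IgLON5#1, with mice 8 and 17 high (log2 fold change 2.72 ± 0.36 (SE), adjusted p = 9.96e-06). Lyz2, the lysozyme of macrophages and monocytes, showed the same order among the antibody mice, at 152, 55.8, 43.7 and 123 CPM against 10.2, 9.78, 8.09, 21.1 and 6.43 CPM in PBS (log2 fold change 3.08 ± 0.39 (SE), adjusted p = 4.72e-06). Mrc1, a mannose receptor of these cells, was at 20.7, 1.86, 7.66 and 15.1 CPM against 3.68, 6.97, 6.36, 8.399 and 3.65 CPM in PBS, which overlapped (log2 fold change 0.97 ± 0.49 (SE), adjusted p = 0.358). Lyve1, a hyaluronan receptor on macrophages along vessels, fell, from 1.06, 1.23, 1.17, 1.66 and 0.942 CPM in PBS to 0.541, 0.169, 0.582 and 0.516 CPM with α-IgLON5#1 (log2 fold change -1.36 ± 0.31 (SE), adjusted p = 0.00759). It missed the threshold once the 3 libraries that stood apart were left out together (-1.09, adjusted p = 0.0885). A list of 10 meningeal fibroblast and collagen genes summed to 514 to 1644 CPM in PBS and to 1410, 193, 746 and 1475 CPM in the antibody mice, lowest in mouse 9, where Lyve1 was lowest too. The part of attached meninges in these values was not tested.

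Most genes of Fc receptors, by which myeloid cells respond to antibody, were higher. Of 7 Fc receptor genes 5 were DEGs, with a median of 1.80. Fcer1g, the signalling chain of the activating Fc receptors, was at 7.61, 5.23, 4.57, 6.35 and 5.75 CPM in PBS and 19.4, 41.1, 23.9 and 14.5 CPM with α-IgLON5#1 (log2 fold change 2.06 ± 0.25 (SE), adjusted p = 2.37e-06). The activating receptor Fcgr3 was at 12.6, 8.01, 8.59, 10.7 and 9.18 CPM and 23.9, 28.6, 26.3 and 18.5 CPM in the same order of groups (log2 fold change 1.31 ± 0.14 (SE), adjusted p = 4.37e-07). Fcgr2b, the inhibitory Fc receptor, was at 3.85, 3.95, 4.31, 4.99 and 3.72 CPM in PBS and 31.01, 16.8, 12.2 and 10.7 CPM with α-IgLON5#1, with mouse 8 highest (log2 fold change 2.08 ± 0.27 (SE), adjusted p = 6.56e-06). In all 3 of these genes the groups did not overlap. Fcgr1, the high-affinity receptor, rose by 1.68 ± 0.23. Fcgrt, which recycles IgG and is built like an MHC class I chain, was at 18.7 ± 3.77 CPM in PBS and 20.4 ± 3.904 CPM with the antibody (adjusted p = 0.826).

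Most inhibitory receptors of myeloid cells rose, and so did all listed subunits of the NADPH oxidase, the enzyme complex that makes superoxide in phagocytes. Of 11 inhibitory receptor genes 8 were DEGs, 10 passed the test and the list median was 2.58. The exception, Sirpa, a receptor for the do-not-eat signal Cd47, was the most abundant, at 358 ± 19.4 CPM in PBS and 381 ± 18.03 CPM with α-IgLON5#1 (adjusted p = 0.522), and the summed list overlapped between α-IgLON5#1 (409 to 470.2 CPM) and pCtrl (382 to 459 CPM). Cd72, a lectin-like receptor with an inhibitory motif, was at 0.205, 0.394, 0.264, 0.356 and 0.3297 CPM in PBS and 7.04, 18.1, 14.8 and 2.89 CPM with α-IgLON5#1. Mice 9 and 16 were high and mouse 17 was low, yet all stood above PBS (log2 fold change 5.05 ± 0.54 (SE), adjusted p = 3.74e-07). Siglece, a sialic acid receptor, rose from 0.778 ± 0.0453 to 4.72 ± 1.85 CPM (log2 fold change 2.58 ± 0.27 (SE), adjusted p = 2.52e-07). All 6 NADPH oxidase genes were DEGs without overlap between groups, with a median of 2.16. Rac2, the GTPase that switches the oxidase on in blood cells, was at 2.49, 2.18, 2.02, 2.46 and 2.05 CPM in PBS and 14.6, 27.1, 16.8 and 6.48 CPM with α-IgLON5#1 (log2 fold change 2.85 ± 0.35 (SE), adjusted p = 2.8e-06). The cytosolic subunit gene Ncf1 rose by 1.85 ± 0.19 and the membrane subunit gene Cyba by 1.68 ± 0.19.

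The complement cascade tags targets of antibody, with C1q at its start and C3 at its centre. Of 10 complement component genes 6 were DEGs, with a median of 1.47, and of 11 receptor and regulator genes 5 were, with a median of 0.87. C1qa was at 49.8, 36.8, 42.9, 40.4 and 40.03 CPM in PBS and 108, 222, 157 and 119 CPM with α-IgLON5#1. Mouse 9 was highest and no value overlapped (log2 fold change 1.85 ± 0.14 (SE), adjusted p = 4.63e-09). C1qb followed the same order among the antibody mice at 100.5, 169.7, 118 and 94.8 CPM, except that mice 8 and 17 changed places, against a PBS mean of 35.1 ± 4.77 CPM (log2 fold change 1.78 ± 0.13 (SE), adjusted p = 3.38e-09). C3 had the largest change of the list. It was at 0.375, 0.738, 0.147, 0.326 and 0.942 CPM in PBS and 53.4, 25.2, 24.1 and 22.5 CPM with α-IgLON5#1, where mouse 8 stood above 3 close values (log2 fold change 5.86 ± 0.55 (SE), adjusted p = 5.88e-08). In pCtrl it was at 0.4701, 1.62, 0.238 and 0.196 CPM. The receptor for the C3a fragment, C3ar1, was at 16.8, 21.01, 16.7 and 8.195 CPM against 2.49, 2.17, 1.67, 2.196 and 2.002 CPM in PBS (log2 fold change 2.89 ± 0.30 (SE), adjusted p = 2.78e-07). Itgam, a chain of complement receptor 3, rose by 1.44 ± 0.19.

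**Figure D3:**
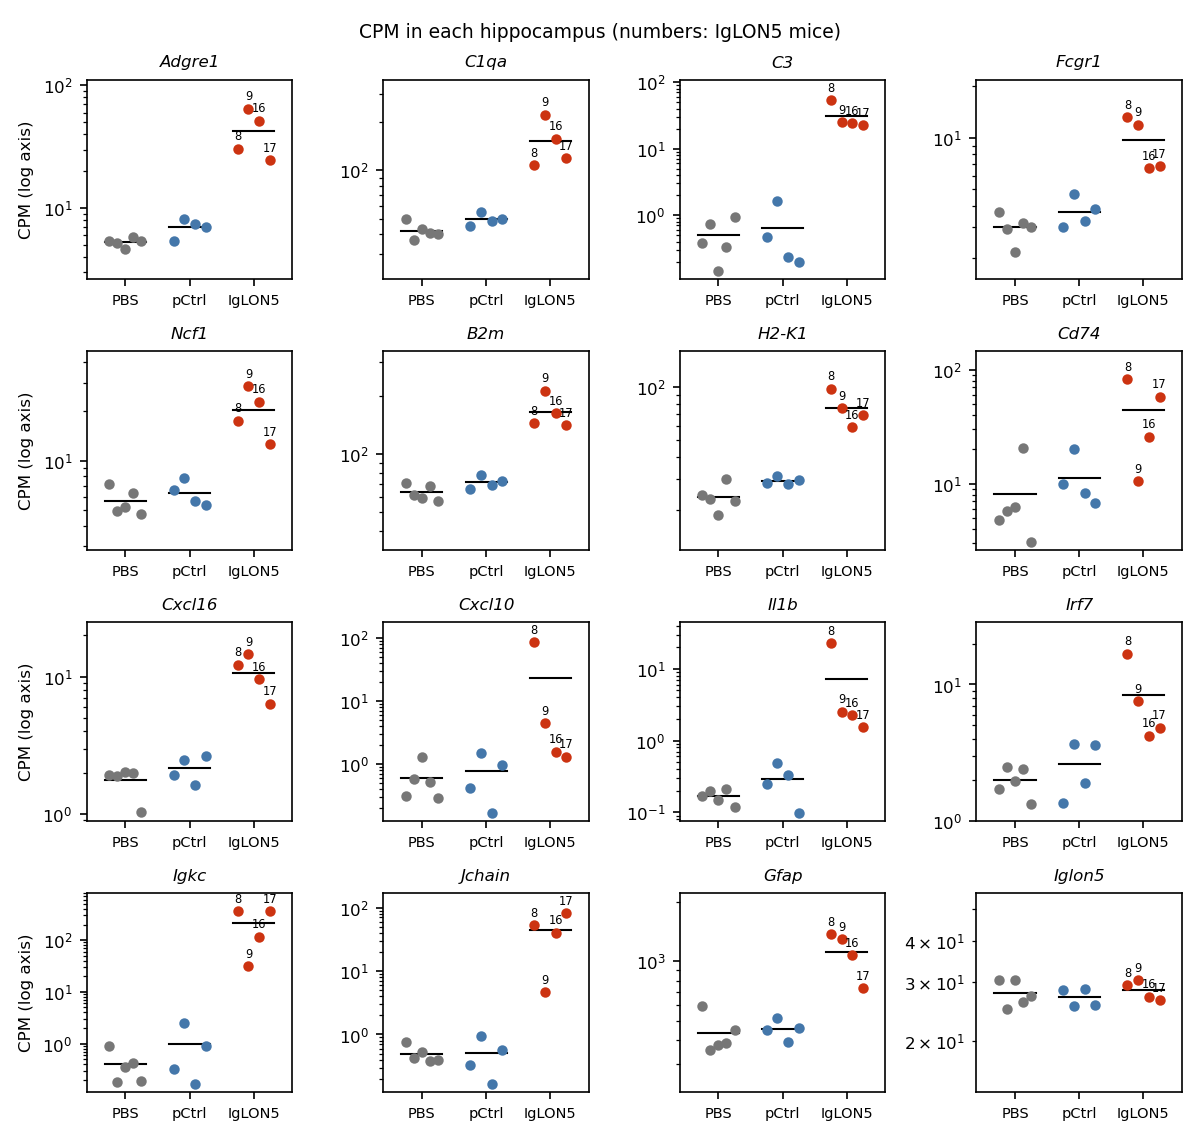
CPM of single genes in each hippocampal library (log10 axis) for PBS (n = 5), pCtrl (n = 4) and α-IgLON5#1 (n = 4), with a bar at the mean of each group. Numbers beside the red points name the antibody mice. Adgre1, C1qa and C3 lie higher in all 4 antibody mice than in the other mice, Cxcl10 is far higher in mouse 8, and Iglon5 overlaps over the 3 groups.

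MHC class I molecules show peptides from inside the cell and MHC class II molecules peptides from outside it. Genes of MHC class I rose together. Of 12 genes of this pathway 8 were DEGs and 11 passed the test, with a median of 1.56. B2m, the light chain of every class I molecule (chr2:122147686-122153083), was at 70.7, 61.1, 59.3, 68.5 and 57.1 CPM in PBS and 144, 213, 162 and 141 CPM with α-IgLON5#1. The groups were far apart relative to the spread within them (log2 fold change 1.38 ± 0.11 (SE), adjusted p = 6.69e-09). The heavy chain gene H2-K1 was at 24.5, 23.1, 18.8, 30.2 and 22.5 CPM and 98.1, 75.6, 59.5 and 69.4 CPM in the same order of groups (log2 fold change 1.67 ± 0.18 (SE), adjusted p = 5.25e-07). H2-D1 rose by 1.63 ± 0.13 and the nonclassical gene H2-Q7 by 2.71 ± 0.34. H2 genes are near-identical in places, so reads may have been split among them. Of 26 tested genes named H2 on chromosome 17, 13 were up-regulated DEGs and 0 down-regulated. Nlrc5, the transactivator of class I genes, rose from 1.19 ± 0.352 to 5.93 ± 2.56 CPM (log2 fold change 2.29 ± 0.40 (SE), adjusted p = 0.000303).

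Genes of MHC class II were higher too, but with a wide spread. Of 9 genes 7 were DEGs (3 without mouse 8), with a median of 1.61, and in 3 of the 9 the groups did not overlap. Cd74, the invariant chain of class II, was at 4.78, 5.74, 6.305, 20.8 and 3.08 CPM in PBS and 82.5, 10.5, 25.9 and 58.02 CPM with α-IgLON5#1. PBS mouse 38 stood above antibody mouse 9, and mice 8 and 17 were high (log2 fold change 2.45 ± 0.57 (SE), adjusted p = 0.00872). The log2 fold change was 1.98 (adjusted p = 0.0732) without mouse 8 and 3.14 (adjusted p = 0.000956) without PBS mouse 38. H2-Eb1 had the same order, with 35.98, 5.75, 9.87 and 27.7 CPM against 2.25, 3.46, 2.08, 9.79 and 1.53 CPM in PBS (log2 fold change 2.38 ± 0.54 (SE), adjusted p = 0.00688), and its adjusted p was 0.0596 without mouse 8 and its log2 fold change 3.06 without PBS mouse 38.

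Interferon response genes were higher in part. Of 20 type I interferon response genes all 20 had a higher fitted level with α-IgLON5#1, 7 passed the test and 6 were DEGs, with a median of 1.51. The DEGs numbered 2 without mouse 8, 12 without mouse 16 and 1 without the 3 libraries that stood apart. Irf7, a factor that amplifies interferon production, was at 1.71, 2.48, 1.96, 2.404 and 1.32 CPM in PBS and 16.8, 7.55, 4.199 and 4.81 CPM with α-IgLON5#1. Mouse 8 was more than 2 times the next mouse (log2 fold change 2.06 ± 0.48 (SE), adjusted p = 0.00784), and without it the log2 fold change was 1.46 (adjusted p = 0.117). Zbp1, a sensor of Z-form nucleic acids, was at 0.409, 0.246, 0.323, 0.326 and 0.259 CPM in PBS and 6.497, 2.42, 1.01 and 1.89 CPM with the antibody (log2 fold change 3.23 ± 0.57 (SE), adjusted p = 0.000394, and 2.5 without mouse 8). Bst2, a surface protein that holds budding viruses, rose by 1.65 ± 0.34 (1.37, adjusted p = 0.0777 with the 3 libraries that stood apart left out), and Oas1a, an enzyme of the RNase L pathway, by 2.1 ± 0.50 (1.61, adjusted p = 0.113 without mouse 8). Of 13 interferon-inducible GTPases and regulators 9 were DEGs (2 without mouse 8, and 2 without the 3 libraries that stood apart), with a median of 1.38. Irf8, a factor that myeloid cells carry at rest as well, was at 5.66, 6.12, 5.42, 6.56 and 6.36 CPM in PBS and 17.1, 17.5, 16.5 and 11.7 CPM with α-IgLON5#1, a narrow range in both groups (log2 fold change 1.38 ± 0.14 (SE), adjusted p = 2.43e-07). In pCtrl, Irf7 was at 1.35, 3.65, 1.88 and 3.58 CPM and Zbp1 at 0.347, 0.903, 0.476 and 1.4 CPM, with mice 15 and 75 high.

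CC chemokines draw monocytes and lymphocytes, and they rose widely. Of 12 tested CC chemokine genes 10 were DEGs (6 without mouse 8), with a median of 3.27. Those on chromosome 11 between 82035571 and 83664683 numbered 9, and all 9 were up-regulated DEGs. Ccl3, a chemokine that draws macrophages, was at 0.171, 0.131, 0.147, 0.237 and 0.235 CPM in PBS and 35.6, 6.196, 6.07 and 0.716 CPM with α-IgLON5#1. Mouse 8 was far above the others and mouse 17 was the lowest, still above PBS (log2 fold change 6.02 ± 1.08 (SE), adjusted p = 0.000486, and 4.52 without mouse 8). Ccl12, a ligand of Ccr2, was at 25.9, 8.34, 3.402 and 1.404 CPM against 0.375, 0.213, 0.117, 0.356 and 0.235 CPM in PBS (log2 fold change 5.23 ± 0.87 (SE), adjusted p = 0.000181, and 4.05 without mouse 8). Ccl5 was at 6.74, 2.59, 1.72 and 1.605 CPM against 0.307, 0.08202, 0.08797, 0.208 and 0.165 CPM (log2 fold change 4.25 ± 0.73 (SE), adjusted p = 0.00027, and 3.58 without mouse 8). For these 3 genes the pCtrl mice held at most 0.978 CPM.

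Of 9 tested CXC and CX3C chemokine genes 5 were DEGs (2 without mouse 8, and 2 without the 3 libraries that stood apart), with a median of 2.59. Cxcl13, which draws B cells into follicles, had 2 counts over all 5 PBS libraries and 694 over the 4 antibody libraries. Its CPM with α-IgLON5#1 were 4.33, 18.4, 5.85 and 2.52, highest in mouse 9, and the ratio to PBS was 659 (95% interval for counting error only 182 to 5452, and 419 without mouse 9). Cxcl16, a membrane-bound chemokine for Cxcr6, was at 1.91, 1.903, 2.02, 1.99 and 1.04 CPM in PBS and 12.3, 14.6, 9.65 and 6.36 CPM with the antibody (log2 fold change 2.59 ± 0.33 (SE), adjusted p = 5.58e-06). Cxcl10, an interferon-induced ligand of Cxcr3, was at 0.307, 0.574, 1.26, 0.505 and 0.283 CPM in PBS and 86.5, 4.45, 1.56 and 1.29 CPM with α-IgLON5#1. Nearly all of the difference lay in mouse 8 (log2 fold change 5.31 ± 1.16 (SE), adjusted p = 0.00445), and without it the log2 fold change was 1.97 (adjusted p = 0.433). Cxcl9, another Cxcr3 ligand, stayed under 1 CPM in every mouse (log2 fold change 3.56 ± 0.83 (SE), adjusted p = 0.00854, adjusted p = 0.0614 without mouse 8).

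Of 14 tested cytokine genes 6 were DEGs (2 without the 3 libraries that stood apart), with a median of 0.65. Il1b, the processed form of which drives fever and vessel activation, was at 0.171, 0.197, 0.147, 0.208 and 0.118 CPM in PBS and 22.6, 2.53, 2.27 and 1.52 CPM with α-IgLON5#1. All 4 antibody mice were above PBS, with mouse 8 far above (log2 fold change 5.37 ± 1.01 (SE), adjusted p = 0.000869, and 3.6 without mouse 8, adjusted p = 0.0281). Il1a was more even among mice 8, 9 and 16, at 3.54, 3.49, 2.54 and 0.831 CPM against 0.443, 0.427, 0.469, 0.416 and 0.353 CPM in PBS (log2 fold change 2.59 ± 0.40 (SE), adjusted p = 8.16e-05). Tnf was at 0.0341, 0.08202, 0.117, 0 and 0.0706 CPM in PBS and 7.28, 0.901, 0.184 and 0.201 CPM with α-IgLON5#1 (log2 fold change 4.92 ± 1.19 (SE), adjusted p = 0.0114), and its log2 fold change was 2.47 (adjusted p = 0.453) without mouse 8. Il6 had too few counts to be tested, with 6, 6, 0, 0 and 1 in PBS and 19, 2, 2 and 3 with α-IgLON5#1. Of 20 cytokine receptor genes 13 passed the test, all higher, and 8 were DEGs.

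Sensors of the innate immune system rose in part. Of 12 genes of Toll-like receptors and their partners 7 were DEGs, with a median of 1.38, and of 9 inflammasome genes 5 were, with a median of 1.13. Tlr2, a receptor for bacterial lipoproteins, was at 1.399, 1.08, 0.997, 0.9497 and 1.01 CPM in PBS and 27.2, 18.2, 10.4 and 5.24 CPM with α-IgLON5#1, highest in mouse 8, lowest in mouse 17 and without overlap (log2 fold change 3.8 ± 0.50 (SE), adjusted p = 7.61e-06). Casp4, the inflammatory caspase that senses lipopolysaccharide, was also highest in mouse 8, at 5.36, 2.59, 1.69 and 1.404 CPM against 0.478, 0.558, 0.381, 0.475 and 0.353 CPM in PBS (log2 fold change 2.57 ± 0.44 (SE), adjusted p = 0.000302).

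Immunoglobulin genes had the largest fold changes, and the 10 up-regulated DEGs named by size of change were all Ig genes. Of 68 tested Ig genes 60 were up-regulated DEGs and 0 down-regulated, among the 60 were 50 of 57 variable genes, 39 without overlap between groups. At the heavy chain locus (chr12:113254830-115953005, GRCm38) 25 of 29 tested genes were up-regulated DEGs, at the kappa locus (chr6:67609713-70726966) 29 of 33 and at the lambda locus (chr16:19061618-19260859) 6 of 6. No heavy or kappa variable gene reached 10 counts in any PBS hippocampus, and hardly any did in pCtrl. Among the hippocampi it was mainly the antibody libraries that let such genes pass the count filter. These counts of variable genes therefore follow in large part from that filter. Ig genes summed to 7.80 to 12.9 CPM in PBS, 12.3 to 16.2 CPM in pCtrl and 1560, 121, 623 and 1895 CPM in the antibody mice. PBS mouse 14 and pCtrl mice 10 and 15, with numbers like those of the antibody mice, were at 12.9, 13.2 and 16.2 CPM. They were the highest of their groups, as the other PBS mice were at 7.80 to 9.38 CPM and pCtrl mice 37 and 75 at 12.7 and 12.3 CPM. What went with the mouse number was not tested. Igkc, the constant gene of kappa light chains, was at 0.887, 0.1804, 0.352, 0.416 and 0.188 CPM in PBS and 358, 31.1, 117 and 363 CPM with α-IgLON5#1. Mice 8 and 17 were high, mouse 16 was between and mouse 9 was lowest, yet far above PBS (log2 fold change 9.22 ± 0.81 (SE), adjusted p = 2.83e-08). Ighm, the constant gene of IgM, was at 8.66, 7.04, 6.803, 7.78 and 7.72 CPM in PBS and 223, 34.02, 144 and 329 CPM with the antibody (log2 fold change 4.59 ± 0.41 (SE), adjusted p = 3.09e-08). Ighg2b, that of IgG2b, was at 0.375, 0.0164, 0, 0 and 0.0471 CPM in PBS and 308, 14.4, 71.01 and 432 CPM with the antibody (log2 fold change 11.45 ± 1.21 (SE), adjusted p = 3.38e-07, 10.79 without mouse 17 and 13.27 without PBS mouse 14). Igha, the constant gene of IgA, was at 85.7, 8.67, 50.9 and 66.5 CPM against 0.205, 0.0656, 0.0293, 0.0297 and 0.306 CPM in PBS (log2 fold change 8.69 ± 0.84 (SE), adjusted p = 8.48e-08, and 9.38 without PBS mouse 74).

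The classes and variable genes differed between the antibody mice. Counts of heavy chain constant genes were 14751, 1149, 10352 and 32473 with α-IgLON5#1, and 242 to 453 in PBS. Ighm made up 30.7%, 52.6%, 45.5% and 35.4% of these counts in the antibody mice and 84.7% to 96.0% in PBS, so that class-switched transcripts took most of the counts in mice 8, 16 and 17. In PBS the 232 to 429 Ighm counts stood beside only 8 to 26 kappa and 0 to 18 heavy variable counts. Whether the PBS share reflects transcripts of IgM antibody was not tested. Ighg2b made up 42.5%, 22.3%, 22.4% and 46.4% in the antibody mice. The widest Wilson 95% interval of these shares in the antibody mice was that of Ighm in mouse 9, 49.7% to 55.4%, while that of Ighm in PBS mouse 14 ran from 80.15% to 88.3%, and such intervals cover counting error only. Kappa took 96.1%, 95.3%, 88.3% and 95.5% of the light chain counts, with lambda more frequent in mouse 16 than in the other 3. Of 113 heavy chain variable genes 34, 2, 34 and 45 had at least 10 counts in the antibody mice, and of 100 kappa variable genes 37, 11, 41 and 47 did, against 0 of either kind in each PBS mouse. The most frequent heavy variable gene took 13.1% of heavy variable counts in mouse 8 (Ighv1-78), 22.6% in mouse 9 (Ighv1-78), 21.4% in mouse 16 (Ighv1-22) and 23.3% in mouse 17 (Ighv1-82). Ighv1-82 had no count in PBS, 13 counts in pCtrl mouse 75 and 100, 9, 49 and 1928 counts in the antibody mice, at least 1039-fold higher over the group against a floor of 3 counts, and at least 154-fold without mouse 17. Igkv5-43 was at least 687-fold higher by the same floor, and at least 306-fold without mouse 8. Variable genes are near-identical in sequence, so the split of reads among them is uncertain.

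**Figure D4:**
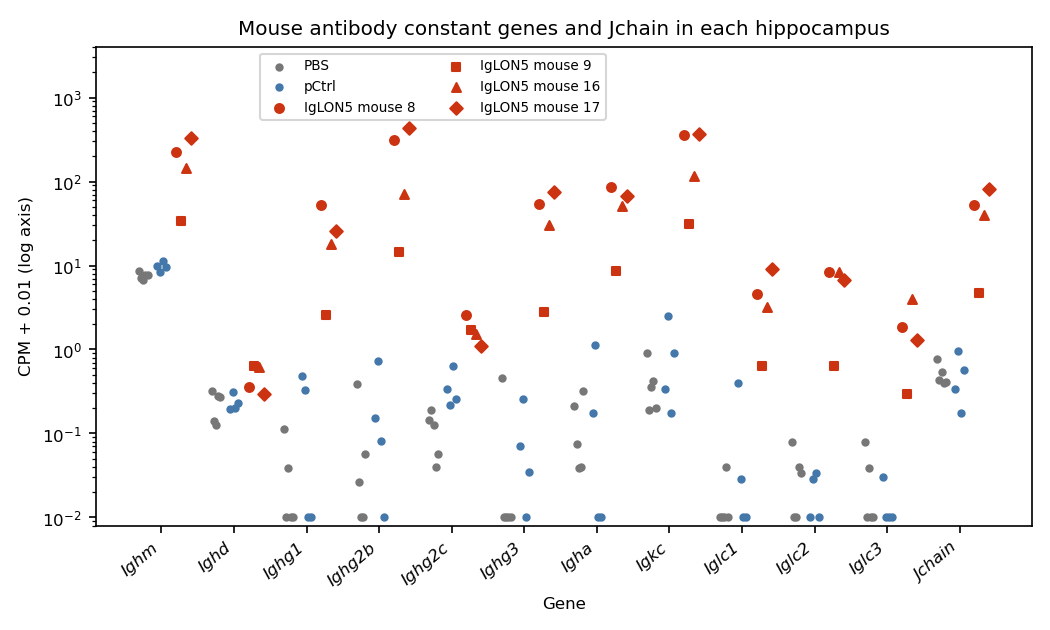
CPM plus 0.01 (y axis, log scale) of 11 Ig constant genes and Jchain (x axis) in each hippocampal library of PBS, pCtrl and the 4 antibody mice, which have a symbol each. In all genes but Ighd the 4 antibody mice lie above every PBS mouse, mouse 9 is the lowest of them in most genes, and Ighm has the highest level in PBS.

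Markers of B cells and plasma cells rose in part, most of them at low levels. Of 10 tested B cell genes 7 were DEGs (4 without mouse 8, and 4 without mouse 17), with a median of 2.55, and of 12 plasma cell genes 5 were, with a median of 0.76. Jchain, which joins IgM and IgA into polymers, was at 0.7505, 0.427, 0.528, 0.386 and 0.4003 CPM in PBS and 52.4, 4.67, 40.2 and 81.95 CPM with α-IgLON5#1, in the order of the Ig genes (log2 fold change 6.53 ± 0.61 (SE), adjusted p = 5.03e-08). Irf4, a factor that plasma cells need, was lowest in mouse 9 too, at 4.38, 0.676, 1.62 and 2.41 CPM against 0.341, 0.476, 0.381, 0.475 and 0.283 CPM in PBS (log2 fold change 2.52 ± 0.38 (SE), adjusted p = 4.71e-05). The B cell receptor chain Cd79b was at 0.273, 0.148, 0.0586, 0.08904 and 0.235 CPM in PBS and 1.53, 1.24, 1.103 and 1.404 CPM with the antibody, nearly even over the 4 mice (log2 fold change 3.01 ± 0.41 (SE), adjusted p = 1.17e-05). Cd22, a B cell lectin, was as even, at 2.07, 1.75, 1.502 and 1.95 CPM against 0.136, 0.262, 0.205, 0.148 and 0.165 CPM (log2 fold change 3.23 ± 0.47 (SE), adjusted p = 2.91e-05). Spib, a factor of B cells and plasmacytoid dendritic cells, was at 1.38, 0.732, 1.87 and 0.974 CPM with a PBS maximum of 0.102 CPM (log2 fold change 4.1 ± 0.54 (SE), adjusted p = 9.41e-06). Other members did not pass the test. The log2 fold change was -0.05 (adjusted p = 0.965) for the B cell gene Cr2, a complement receptor, and -0.20 (adjusted p = 0.743) for Bank1, a scaffold of B cell signalling. It was 0.21 (adjusted p = 0.289) for Xbp1, a factor of secretory cells, and 0.07 (adjusted p = 0.708) for Txndc5, a folding enzyme, both on the plasma cell list. That list summed to 120.1 CPM in mouse 9, within the PBS range of 114 to 129 CPM, and lay above this range in the other 3 antibody mice.

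Some genes of T cells and of other blood cells rose too. Of 8 tested T cell genes 2 were DEGs and the median was 0.70. Cd4, which macrophages can carry as well, was at 0.136, 0.394, 0.323, 0.178 and 0.353 CPM in PBS and 2.31, 0.394, 0.827 and 2.41 CPM with α-IgLON5#1, with mouse 9 at the highest PBS value (log2 fold change 2.37 ± 0.41 (SE), adjusted p = 0.000298). Cd3g, a chain of the T cell receptor complex, was at 0.394, 0.282, 0.276 and 0.6304 CPM with a PBS maximum of 0.0586 CPM (log2 fold change 3.43 ± 0.67 (SE), adjusted p = 0.00126). Cd3d, Cd3e, Cd8a and Cd8b1 were too scarce to be tested, with at most 11 counts in any antibody mouse. The T cell list summed to 6.82 to 8.45 CPM in PBS and 9.47 to 13.4 CPM with the antibody. Of 2 tested NK cell genes 1, the activating receptor Klrk1, was a DEG (adjusted p = 0.0194), but not without mouse 8, PBS mouse 33, PBS mouse 74 or the 3 libraries that stood apart (adjusted p = 0.132, 0.0523, 0.0577 and 0.146), and the 6 not tested had at most 14 counts in any antibody mouse. Of 9 neutrophil and monocyte genes 4 were DEGs (2 without mouse 8), with a median of 1.11, and the list summed to 49.2, 32.8, 29.5 and 28.2 CPM in the antibody mice against 9.77 to 12.2 CPM in PBS. The smallest adjusted p was that of Csf3r, which is on the cytokine receptor list too (log2 fold change 1.71, adjusted p = 7.18e-08). Which cells the summed rise came from was not tested. Ly6c2, a marker of inflammatory monocytes, was at 0, 0.0984, 0.0293, 0.0594 and 0 CPM in PBS and 2.51, 0.563, 0.644 and 1.32 CPM with α-IgLON5#1 (log2 fold change 4.73 ± 0.73 (SE), adjusted p = 6.92e-05, and 5.64 without PBS mouse 32). Ccr2, the receptor that leads them into tissue, was at 8.71, 1.63, 2.36 and 5.16 CPM against 0.5799, 0.951, 0.645, 1.098 and 0.353 CPM in PBS (log2 fold change 2.6 ± 0.59 (SE), adjusted p = 0.00651, adjusted p = 0.0626 without mouse 8). Plac8, found in many leukocytes, lay mostly in mouse 8 at 6.05, 0.6196, 0.276 and 0.917 CPM (log2 fold change 4.27 ± 0.998 (SE), adjusted p = 0.00857), and its log2 fold change was 2.63 (adjusted p = 0.227) without it. Neutrophil genes Ly6g, Mmp8 and Retnlg had at most 5 counts in any antibody mouse. Of 5 erythrocyte genes 0 passed the test, with a median of -0.26.

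Genes of reactive astrocytes rose in part, while no gene of resting astrocytes passed the test. Of 15 reactive astrocyte genes 9 were DEGs (3 without mouse 8, and 4 without the 3 libraries that stood apart), 10 passed the test, and the median was 1.28. Gfap, the filament gene that rises in reactive astrocytes, was at 594, 354, 378, 388 and 451 CPM in PBS and 1379.7, 1296, 1073 and 732 CPM with α-IgLON5#1. The groups did not overlap, with mouse 17 nearest to PBS (log2 fold change 1.37 ± 0.25 (SE), adjusted p = 0.000526). Vim, another filament gene, was at 41.96 ± 5.72 CPM in PBS and 71.7 ± 13.7 CPM with the antibody (log2 fold change 0.77 ± 0.18 (SE), adjusted p = 0.00861, adjusted p = 0.0629 without mouse 8). Lcn2, a secreted iron-binding protein, was at 0.614, 0.591, 0.205, 0.564 and 1.13 CPM in PBS and 21.2, 15.6, 0.858 and 2.12 CPM with α-IgLON5#1, high in mice 8 and 9 and inside the PBS range in mouse 16 (log2 fold change 3.94 ± 0.83 (SE), adjusted p = 0.0033, and 3.23 without mouse 8). Its adjusted p was 0.0528 with the 3 libraries that stood apart left out. Steap4, a metalloreductase, was at 15.2, 5.01, 1.04 and 1.66 CPM against 0.648, 0.394, 0.352, 0.356 and 0.165 CPM in PBS (log2 fold change 3.89 ± 0.75 (SE), adjusted p = 0.00114, and 2.7 without mouse 8). Serpina3n, a protease inhibitor, was at 110.2, 87.5, 45.4 and 32.3 CPM against 38.4, 29.5, 20.996, 20.1 and 31.8 CPM and did not pass the test (log2 fold change 1.28 ± 0.43 (SE), adjusted p = 0.106), though it did with tissue composition as a covariate (adjusted p = 0.0194). Of 12 genes of resting astrocytes 0 passed the test, and the median was 0.04.

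Other cells of the tissue showed little, while the proliferation genes lay higher without passing the test. The proliferation list summed to 24.66, 37.34, 24.43 and 22.81 CPM with α-IgLON5#1 and to 24.05, 15.76, 16.04, 15.55 and 17.54 CPM in PBS. Lists of 13 oligodendrocyte genes (median -0.10), 6 genes of their precursors (0.07), 11 blood-brain barrier genes (0.03), 8 pericyte and smooth muscle genes (0.11), 10 fibroblast and collagen genes (0.09) and 10 proliferation genes (0.65, all 10 higher) held 0 genes that passed the test, except that 1 proliferation gene was a DEG without PBS mouse 14. Of 4 tested endothelial adhesion genes Icam1, by which leukocytes arrest on vessels and which microglia can carry too, was a DEG. Icam1 was at 2.25, 2.48, 2.17, 2.29 and 2.12 CPM in PBS and 18.9, 8.11, 4.63 and 5.64 CPM with α-IgLON5#1, with mouse 8 highest and no overlap (log2 fold change 2.02 ± 0.37 (SE), adjusted p = 0.000689, and 1.42 without mouse 8).

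The 22 down-regulated DEGs were scarce, as 19 had a PBS mean under 2 CPM, with a median of -1.66 on the log2 scale. In 10 of them the groups did not overlap, and 9 were highest in PBS mouse 74 and 5 in PBS mouse 32. Cga, a pituitary hormone chain, was at 0.546, 0.0984, 0, 0 and 46.01 CPM in PBS and 0.0984, 0, 0 and 0 CPM with α-IgLON5#1, high in PBS mouse 74 alone (log2 fold change -8.7, adjusted p = 0.0217, and -2.72, adjusted p = 0.596 without that mouse). Prl, prolactin, was at 11.4, 2.17, 0.205, 1.07 and 800.4 CPM against 3.64, 0.0563, 1.13 and 1.46 CPM, again high in PBS mouse 74 (log2 fold change -6.71, adjusted p = 0.0307, and -1.21, adjusted p = 0.743 without it). Avp, vasopressin of the hypothalamus, was high in PBS mouse 32 at 0.546, 4.87, 0.235, 0.148 and 0.235 CPM, against 0.148, 0.169, 0.0613 and 0.0573 CPM with the antibody (log2 fold change -3.68, adjusted p = 0.0138, and -1.51, adjusted p = 0.116 without PBS mouse 32), and its call was lost without mouse 17 as well (adjusted p = 0.061). Ccdc153, a gene of motile cilia, was at 0, 2.72, 0.08797, 0 and 3.13 CPM in PBS and 0.0492, 0, 0.123 and 0.0287 CPM with α-IgLON5#1, high in PBS mice 32 and 74 alone (log2 fold change -4.39, adjusted p = 0.0252). It was -3.84 without mouse 32 (adjusted p = 0.0843) and -3.73 without mouse 74 (adjusted p = 0.0844). Dnah11, a dynein of cilia, had the same high pair, at 0.102, 2.92, 0.586, 0.326 and 2.19 CPM against 0.197, 0.0563, 0.306 and 0.201 CPM (log2 fold change -2.63, adjusted p = 0.0193). It was -2.01 without mouse 32 (adjusted p = 0.099) and -2.35 without mouse 74 (adjusted p = 0.0591). The calls of Cga, Prl, Ccdc153 and Dnah11 were also lost without antibody mouse 8, 9 or 17, at adjusted p between 0.0604 and 0.093, and those of Cga and Prl without mouse 16 too (adjusted p = 0.0544 and 0.0663). Log2 fold changes moved to -11.42 for Cga and -7.33 for Prl without mouse 8, and to -5.35 for Ccdc153 without mouse 16. A list of 6 ependymal genes summed to 19.03 and 21.9 CPM in PBS mice 32 and 74, to 6.14 to 8.06 CPM in the other PBS mice and to 7.49 to 7.54 CPM with α-IgLON5#1. Avp and Dnah11 were picked with their values in view. Cga, Prl and Ccdc153 were named by the rule for lists, which were written with earlier results of these data known. Of 7 choroid plexus genes 0 passed the test (median -0.97), and 1 was a down-regulated DEG without mouse 17 or without PBS mouse 14. Ccdc187 met the rule for naming with Lyve1, at 1.88, 4.35, 2.32, 2.34 and 4.99 CPM in PBS and 1.62, 1.86, 1.75 and 1.23 CPM with the antibody (log2 fold change -1.002 ± 0.27 (SE), adjusted p = 0.0253), and its call was lost without PBS mouse 32, PBS mouse 74, mouse 8 or mouse 17 (adjusted p = 0.0936, 0.106, 0.0722 and 0.104).

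The 4 antibody mice differed among themselves in which genes were high. Apart from Ig genes, 459 genes were up-regulated DEGs, and the highest antibody mouse was mouse 8 in 259, mouse 9 in 162, mouse 16 in 20 and mouse 17 in 18 of them. Of the 60 Ig genes mouse 8 was highest in 26, mouse 17 in 23, mouse 16 in 10 and mouse 9 in 1, and mouse 9 was lowest in 52. The pan-myeloid list summed to 261, 420, 309 and 203 CPM in the antibody mice against 82.8 to 109 CPM in PBS, highest in mouse 9. The MHC class II list summed to 226.6, 54.8, 79.4 and 177.5 CPM against 23.9 to 73.8 CPM, and here mouse 9 lay within the PBS range, the top of which was PBS mouse 38, while the other PBS mice reached at most 32.07 CPM. The CC chemokine list summed to 126, 42.9, 35.9 and 25.96 CPM against 15.6 to 16.9 CPM, and mouse 8 stood above the rest. With 4 mice and lists chosen with these values known, the pattern is a description and was not tested. The meningeal fibroblast and collagen list ranked the antibody mice in the same order as the summed Ig genes. It was at 1410, 193, 746 and 1475 CPM in them and at 514 to 1644 CPM in PBS. The part of attached meninges in the differences among the antibody mice was not tested either.

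A set of transcripts was far higher in mouse 8 than in the other antibody mice. In 28 up-regulated DEGs outside the Ig genes it stood more than 4 times above the next antibody mouse, and 26 of these were not DEGs without it, which follows in large part from how they were chosen. Among the 26 were Cxcl10 and Tnf, given earlier, and the macrophage enzyme gene Acod1, which makes itaconate, whereas Il1b and Ccl3 were still DEGs without mouse 8. Acod1 was at 20.6, 1.46, 0.429 and 0.4298 CPM with α-IgLON5#1 and had 2 counts in all over PBS. The ratio of its levels was 449 (95% interval for counting error only 124 to 3719), and 64.7 (17.1 to 547) without mouse 8, where its adjusted p was 0.113. In all, 157 of the 519 up-regulated DEGs were not called without mouse 8. Saa3, an acute phase protein, went with mouse 9 as well as mouse 8, at 29.1, 42.9, 3.06 and 6.16 CPM against 0.102, 0.0164, 0.0586, 0.0594 and 0 CPM in PBS (log2 fold change 8.84 ± 1.13 (SE), adjusted p = 5.69e-06, and 8.15 without mouse 9). Marco, a scavenger receptor of macrophages, had no count in PBS and 6.89, 5.24, 1.38 and 0.544 CPM with α-IgLON5#1, at least 235-fold higher, and at least 160-fold without mouse 8 (adjusted p = 0.00621, and 0.072 with the 3 libraries that stood apart left out). Acod1, Saa3 and Marco were picked with their values in view.

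**Figure D5:**
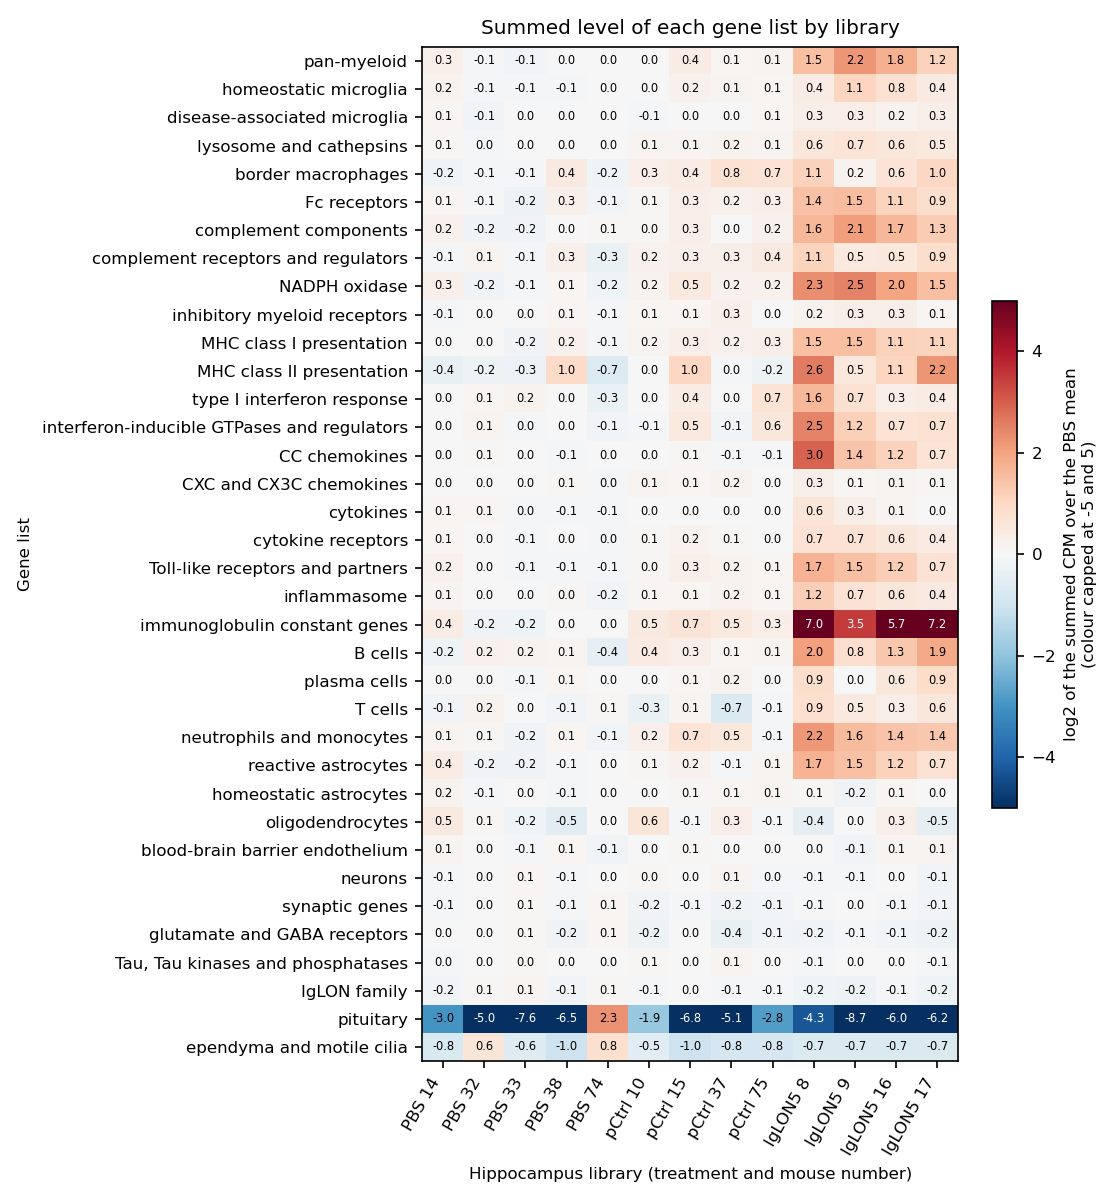
Log2 of the summed CPM of each gene list over its PBS mean (colour and printed value) in each hippocampal library (columns, with treatment and mouse number). Pan-myeloid and homeostatic microglia lists peak in mouse 9, MHC class II and Ig lists in mice 8 and 17, and chemokine and interferon lists in mouse 8.

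The pCtrl hippocampi, which had received the control human IgG, showed few DEGs against PBS. In pCtrl against PBS 10 genes (0.0493%) were up-regulated DEGs and 3 (0.0148%) down-regulated, and 0 of the 519 genes up-regulated with α-IgLON5#1 were among the 10. With so few calls over all genes, this count of 0 says little about the 519. Over the 519 genes the median log2 fold change was 0.26 for pCtrl over PBS, against 0.00 over all tested genes, and 1.71 for α-IgLON5#1 over pCtrl. These comparisons share libraries with the main one, so the values are only set side by side. The list medians of pCtrl over PBS were 0.83 for neutrophils and monocytes and 0.72 for border macrophages, beside 1.11 and 0.55 for α-IgLON5#1 over PBS. They were 0.57 for immediate early genes (0.16 with α-IgLON5#1), 0.53 for cortical layers (-0.11) and -0.63 for hippocampal subfields (0.05), next to the higher cortex score of the pCtrl samples, the part of which in these values was not tested. Aif1 was at 4.43, 5.79, 4.35 and 4.297 CPM in pCtrl, with log2 fold changes of 0.11 ± 0.31 over PBS and 1.93 ± 0.32 for α-IgLON5#1 over pCtrl. C1qa was at 45.1, 55.1, 48.02 and 49.5 CPM in pCtrl, with 0.24 ± 0.14 over PBS and 1.61 ± 0.15 for α-IgLON5#1 over pCtrl. Igkc was at 0.327, 2.48, 0.167 and 0.908 CPM in pCtrl, highest in mouse 15, with 1.48 ± 1.11 over PBS (adjusted p = 0.592) and 7.74 ± 0.79 for α-IgLON5#1 over pCtrl (adjusted p = 8.44e-07). Mrc1, at 10.2, 9.98, 14.8 and 12.5 CPM, lay in pCtrl between antibody mice 16 and 17, with 1.02 ± 0.48 over PBS (adjusted p = 0.339). Gfap was at 446, 514, 388 and 458 CPM, with 0.06 ± 0.25 over PBS and 1.31 ± 0.27 for α-IgLON5#1 over pCtrl (adjusted p = 0.00262).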

How the data were processed

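The authors deposited raw counts of reads for each gene in each library, made from paired-end reads of stranded mRNA libraries that were aligned to GRCm38 with STAR. The counting program, its strand setting and the annotation are not given in the sources used here. Gene names and positions were taken from GENCODE vM21 by identifier, and 260 of 55487 identifiers had no match. Libraries were grouped by the tissue, treatment and mouse number of their labels, and 0 columns were left unassigned. No 2 hippocampal libraries of a group repeated each other (22 pairs compared, chi-square over its degrees of freedom at least 11.6). Tested were genes that reached 10 counts in 4 or more of the 27 libraries, with edgeR 4.0.16 in R 4.3.3 (TMM, quasi-likelihood F test over the 6 tissue and treatment groups, Benjamini-Hochberg adjustment, cortex and hippocampus of the same mouse treated as independent), and a DEG had to change more than 2-fold at an adjusted p below 0.05. The test was tried on simulated data.

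Named were, in each direction, the 10 protein-coding or Ig DEGs of largest change whose groups do not overlap and whose higher mean reaches 1 CPM, up to 4 called and 2 other members of each list, and the genes the study is about, and not each is printed. Some genes are not reported here. The comparison, the lists and this rule were chosen with earlier results of these data known, so lists are described by counts and medians. Members of a list with too few counts were not tested. Alternatives were DESeq2 1.42.0, RLE size factors, no filter beyond 1 count, at least 10 counts in each of the 9 libraries, the 9 libraries alone, tissue composition as a covariate, mice 8 to 17 alone, no fold threshold, each library left out in turn and, chosen after seeing the data, the 3 libraries that stood apart left out together.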

Additional observations from a re-analysis of the deposited data

Results flagged for a closer look

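Single samples far from the rest of their group were sought in groups of 4 and 5 mice with Dixon's 95% critical values, for 101 genes with printed values and for measures of the libraries. Of 210 groups tested 24 held such a sample. Chance gives about 1 in 20, but some of these genes were picked with their values in view, because single mice stood out, so the 2 rates cannot be compared.

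In the antibody mice, mouse 8 stood apart in Cxcl10 (86.5 CPM), C3 (53.45 CPM), Ccl3 (35.6 CPM), Il1b (22.6 CPM), Acod1 (20.6 CPM), Tnf (7.28 CPM), Plac8 (6.05 CPM) and, as the only antibody mouse with a count, Cga (0.0984 CPM). Mouse 9 stood apart in its ribosomal RNA share (13.3%) and, on the low side, in Gad2 (136 CPM) and Lyve1 (0.169 CPM). Mouse 17 stood apart in Ighv1-82 (55.3 CPM).

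In the PBS mice, mouse 38 was high in Lyz2 (21.1 CPM), Cd74 (20.8 CPM), H2-Eb1 (9.79 CPM) and the ribosomal RNA share (2.49%). Mouse 14 was high in Slc1a2 (4123 CPM), Ctss (79.8 CPM) and Ighg2b (0.375 CPM). Mouse 74 was high in Prl (800.4 CPM) and Cga (46.0 CPM) and low in Cxcl16 (1.04 CPM). Mouse 32 was high in Avp (4.87 CPM) and, as the only PBS mouse with counts, in Acod1 (0.0328 CPM).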

How the results depend on the processing

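The 519 up-regulated DEGs became 528 in DESeq2 (501 shared), 516 with RLE size factors, 562 with tissue composition as a covariate, 461 in the 9 libraries alone, 597 without a count filter and 357 without the 3 libraries that stood apart (346 shared). They fell outside 1.5 times that count with at least 10 counts in each of the 9 libraries (277 DEGs, a filter that removes genes without counts in PBS) and with mice 8 to 17 alone (0 DEGs in edgeR, 1559 genes at an unadjusted p under 0.05), where 1 PBS library stood for its group and was assumed to vary like the other groups. Log2 fold changes in that setting were 6.36 for C3, 2.99 for Adgre1, 1.6 for C1qa and 7.92 for Igkc, against 5.86, 3.01, 1.85 and 9.22. Leaving out each library in turn gave 376 to 549. The 22 down-regulated DEGs were less stable, at 22 in DESeq2 (12 shared), 96 without the fold threshold, 35 without a count filter, 1 with at least 10 counts in each of the 9 libraries, 4 in the 9 libraries alone (2 shared), 0 with mice 8 to 17 alone and 6 without the 3 libraries that stood apart, and 9 (without PBS mouse 74) to 38 (without PBS mouse 38) with a library left out. The cause of these shifts was not tested. Ccdc153 and Dnah11, called lower in the main comparison, turned to log2 fold changes of 4.06 and 0.96 with mice 8 to 17 alone. The composition difference of 0.11 was 0.08 with 25 and 0.07 with 300 genes per side. The difference in total counts, -13290000, ran from -15840000 to -8479000 with a library left out, and reached p = 0.0286, the smallest possible, without PBS mouse 14 (two-sided exact permutation test). Of 118 genes named and called, 30 lost the call in at least 1 of the fits with a library left out. Leaving out the 3 libraries that stood apart ended the calls of Bst2, Marco, Lcn2, Lyve1 and Klrk1, given earlier, of Irf7, Oas1a, Cxcl10, Cxcl9, Tnf and Plac8 (adjusted p = 0.0838, 0.117, 0.0505, 0.112, 0.0883 and 0.0528) and of the lower genes Cga, Prl, Ccdc153, Dnah11 and Ccdc187 (adjusted p = 0.547, 0.768, 0.0596, 0.0715 and 0.102) and took Laptm5 under the 2-fold threshold (log2 fold change 0.92). The 9 libraries alone ended those of Cd74, H2-Eb1 and Ighv1-82 (adjusted p = 0.0566, 0.0623 and 0.058) and of the lower genes Cga, Prl, Avp, Ccdc153, Dnah11 and Ccdc187 (adjusted p = 0.249, 0.228, 0.237, 0.277, 0.204 and 0.146). No paired analysis was possible because the α-IgLON5#1 and PBS hippocampi share no mouse numbers. Counts in PBS of 0 for 24 of the up-regulated DEGs limit their fold changes to lower bounds.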

Other observations

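Among members of the lists that had too few counts to be tested, the endothelial selectins, which slow leukocytes on the vessel wall, were found mostly in mouse 8. Sele had 153, 2, 0 and 1 counts in antibody mice 8, 9, 16 and 17 and at most 3 in any PBS mouse. Selp had 79, 1, 0 and 5 counts, and at most 2 in PBS. Il12b, a chain of interleukins 12 and 23, had 63, 0, 4 and 5 counts, and at most 2 in PBS. The neutrophil chemokine gene Cxcl2 had 20, 0, 1 and 1 counts, and at most 1 in PBS. Il10, an anti-inflammatory cytokine, was instead highest in mouse 16, at 5, 3, 20 and 2 counts, with at most 2 in PBS. These genes were picked with their values in view, and no test was made of them.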
